A study of Mus musculus with 2 samples.

Results

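The Mir379 to Mir410 cluster is the distal microRNA block of the imprinted Dlk1-Dio3 region on mouse chromosome 12. Its members were taken by position: every microRNA gene that GENCODE M21 (mm10) places on the plus strand of a 50 kb window, which begins 9060 bp before Mir379 and ends 2040 bp after Mir3072. The annotation gives 39 such genes over 38901 bp (chr12:109709060-109747960), from Mir379 to Mir3072, and 34 of them have a row among the 1973 microRNA genes counted. Small RNA shorter than 30 nt was sequenced from the midbrain of B6NCrl mouse embryos at embryonic day 10.5, healthy and of pooled sexes. The series has 1 group of 2 biological replicates, of which replicate 1 pooled 69 embryos and replicate 2 pooled 51, and no second tissue, stage, genotype or treatment. The values thus describe levels along the cluster and the spread between the 2 pools, in which single embryos, cell types within the midbrain, and fewer cells or less RNA per cell cannot be told apart.

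The cluster is known as a polycistron of placental mammals. It is transcribed from the maternally inherited chromosome as part of a long noncoding transcription unit that also takes in Meg3, Rian and Mirg. Drosha cuts each hairpin from the primary transcript and Dicer then frees a duplex of a 5p and a 3p arm, so that microRNAs of 1 transcript can still accumulate to different levels. In neurons the cluster is known to be induced by activity through Mef2, and its Mir134 is known to restrain dendritic spine size through Limk1. A microRNA finds its targets mainly through its seed, bases 2 to 8 from the 5′ end.

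The mature sequences below are those of the 4 most abundant counted members and of Mir409, at whose position a row of the other strand held still more reads. Capitals mark the seed, and the sequences are from RefSeq on GRCm38.p6, plus strand, which lists mature sequences for 38 of the 39 members (71 in all).
miR-487b-5p: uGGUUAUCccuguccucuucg
miR-369-5p: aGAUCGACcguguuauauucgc
miR-369-3p: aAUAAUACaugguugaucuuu
miR-411-5p: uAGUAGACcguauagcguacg
miR-411-3p: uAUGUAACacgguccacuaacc
miR-541-5p: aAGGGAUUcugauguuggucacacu
miR-541-3p: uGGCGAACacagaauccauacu
miR-409-5p: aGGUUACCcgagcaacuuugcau
miR-409-3p: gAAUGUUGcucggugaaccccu
The counts are per gene and hold reads of both arms, so no level can be given for 1 arm or 1 seed.

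The 34 counted members held 154524 of 3297835 gene-assigned reads in replicate 1 and 173720 of 3682410 in replicate 2. This is 4.69% (95% Wilson interval 4.66 to 4.71%) and 4.72% (4.70 to 4.74%), or 4.70% ± 0.0226 (SD, n = 2). Without the 4 members whose precursor shares 20 bases with another (Mir411, Mir758, Mir376c and Mir487b), the mean was 2.98%. Every partner is a gene of the cluster itself, Mir411 and Mir758 sharing with each other and Mir376c and Mir487b with Mir376b. The intervals cover counting error only, since copies made by PCR cannot be told from separate molecules. The libraries had 7810040 and 9423767 reads in all, of which 42.2% and 39.1% were assigned to microRNA genes, and 30.9% and 29.5% mapped to several places and are in no gene's count. Of the marker lists used to check the tissue, the midbrain and progenitor list was led by Mir92b at 23299 ± 2904 CPM, with a median of 222 CPM over its members of 10 CPM or more. Endothelial Mir126a stood above it at 28614 ± 3062 CPM, and mesenchymal Mir143 was at 7426 ± 1296 CPM. Liver Mir122 was at 10.5 ± 6.68 CPM. The muscle list had 4 of 7 counted genes at 0, all of which share sequence with other loci and can have lost their reads, as can 4 of the 5 counted genes of the midbrain list. CPM are reads per 1000000 gene-assigned reads, the level used throughout. Small RNA reads span a whole mature molecule, so levels were not divided by length. Ordered by reads per base of precursor instead, 9 of the 10 highest members were again among the 10 highest, with Mir487b at the top.

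Most counted members were present: 30 of 34 (88.2%) had a mean of 10 CPM or more, against 17.1% of all counted genes. At 1000 CPM or more stood 11 members (32.4%), against 5.42% of all counted genes. The window chose the members without their counts. The median of the 30 members was 343 CPM, and that of the 308 other genes at 10 CPM or more was 253 CPM. The members spanned a wide range of levels: the highest of the 30 was 773-fold above the lowest.

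Mir487b (ENSMUSG00000076219.1, chr12:109727333-109727414) was the most abundant counted member, with 32394 reads in replicate 1 and 36985 in replicate 2, or 9933 ± 156 CPM (SD, n = 2). It ranked 20 among the 1973 counted genes. Mir369 (ENSMUSG00000065561.2, chr12:109743418-109743496) had 22338 and 25563 reads, 6858 ± 119 CPM. Its 3p arm is known as a repressor of N-cadherin in the embryonic cortex, together with those of Mir496 and Mir543. Mir411 (ENSMUSG00000065477.2, chr12:109710175-109710256) had 20674 and 26024 reads, 6668 ± 564 CPM. The order of Mir369 and Mir411 differed between the libraries, whereas Mir487b was above both of them in each library.

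The next members lay below these and above 1000 CPM. Mir541 (chr12:109742409-109742498) had 14515 and 12165 reads, 3852 ± 776 CPM. Mir382 (chr12:109733771-109733846) had 11403 and 13671 reads, 3585 ± 180 CPM, and its order with Mir541 also differed between the libraries. Mir379 (chr12:109709060-109709125), the most upstream gene, had 10152 and 11853 reads, 3149 ± 99.3 CPM, below both of these in each library. Mir1193 had 5732 and 7894 reads, 1941 ± 287 CPM, and Mir381 had 6572 and 6211 reads, 1840 ± 216 CPM, so that Mir381 was the higher in replicate 1 and Mir1193 in replicate 2. Mir134 (chr12:109734139-109734209), the regulator of dendritic spines, had 5553 and 5878 reads, 1640 ± 61.9 CPM. Mir323 had 4546 and 5600 reads, 1450 ± 101 CPM, and closed the 10 highest. The last member above 1000 CPM was Mir154, with 4161 and 4060 reads, 1182 ± 113 CPM.

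The 3 highest members held 49.9% ± 1.55 of the cluster's reads (SD, n = 2), the 5 highest 65.7% ± 0.202 and the 10 highest 87.0% ± 0.543. The 9 members below 100 CPM held 0.667% ± 0.00907 in all. Of 29 pairs of adjacent ranks among the 30 members of 10 CPM or more, 20 had library values that did not overlap, and 8 changed order between the libraries. No member moved by more than 2 ranks between the libraries, and 18 of 34 kept the same rank. In the plot of members by level, the points of the 2 libraries lie close together over the whole range and part most in members of few reads.

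**Figure D1:**
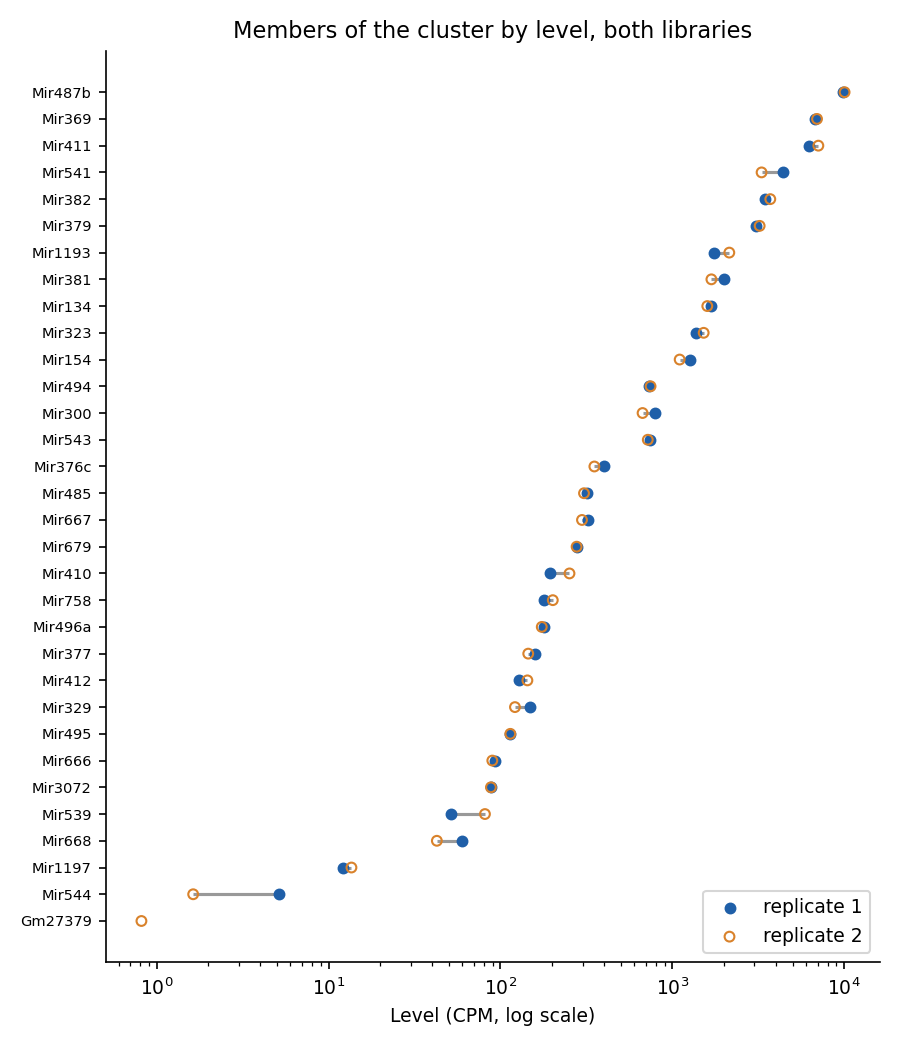
Level in CPM (log axis) of the 32 members with at least 1 read, ordered by their mean; filled points are replicate 1, open points replicate 2 and lines join the libraries. Levels run from 9933 CPM for Mir487b to 12.9 CPM for Mir1197, with Mir544 and Gm27379 below; Gm27379 has no replicate 1 point because it had no read there.

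At the low end, Mir1197 (chr12:109712317-109712436) had 40 and 50 reads, 12.9 ± 1.02 CPM. Mir668 had 196 and 157 reads, 51.0 ± 11.9 CPM, and Mir539 had 171 and 299 reads, 66.5 ± 20.7 CPM, so that the order of the latter pair differed between the libraries. Mir544 had 17 reads in replicate 1 and 6 in replicate 2, and Gm27379, a gene without a RefSeq mature sequence, had 0 and 3. Mir654 (chr12:109723218-109723301) and Mir453 (chr12:109735619-109735700) had no read in either library. A count of 0 allows up to 3 reads, that is 0.910 CPM in replicate 1 and 0.815 CPM in replicate 2. Members at every level from no read to 9933 CPM thus lie on the same strand of the same region.

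The window's edges fell in stretches without expressed microRNA genes. The nearest counted plus-strand microRNA gene upstream, Mir882 (chr12:109682197-109682273), had 0 reads in both libraries. The next, Mir370, had 2755 and 2880 reads (809 ± 37.7 CPM) and lies 81664 bp before the window. Downstream, the last member, Mir3072 (chr12:109747878-109747960), had 291 and 324 reads (88.1 ± 0.180 CPM), and the next plus-strand gene, Gm27299, had none and begins 924100 bp beyond the window.

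Levels showed no simple course along the cluster. Split at gaps above 2 kb between neighbouring genes, the 39 genes fall into 6 stretches. The first, from Mir379 to Mir667, has 13 counted members of 15 annotated over 11 kb, with Mir411 highest and Mir1197 lowest. It summed to 15809 ± 1022 CPM (SD, n = 2), 33.6% of the cluster's reads. Besides those given above, it holds Mir494 with 2426 and 2749 reads (741 ± 7.70 CPM) and Mir543 with 2439 and 2649 reads (729 ± 14.3 CPM), which changed order with Mir300 between the libraries. Mir667 had 1067 and 1097 reads (311 ± 18.1 CPM) and Mir679 had 915 and 1021 (277 ± 0.135 CPM). The rest of the stretch lay below 200 CPM. Mir758 had 593 and 742 reads (191 ± 15.3 CPM). Mir329, which is known with Mir134 from dendrite growth, had 487 and 447 reads (135 ± 18.6 CPM). Mir495 had 376 and 420 reads (114 ± 0.0294 CPM) and Mir666 had 305 and 330 (91.1 ± 2.03 CPM). This stretch thus holds members of every level, and its 2 highest genes stand at its upstream end.

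The second stretch, from Mir376c to Mir300, was the lowest of those with several counted members, at 1110 ± 123 CPM in sum (2.36% of the cluster's reads). It holds the mir-376 genes, whose primary transcripts are known substrates of A-to-I editing in brain, but only Mir376c of these has a row, with 1317 and 1295 reads (376 ± 33.7 CPM). Mir300 had 2630 and 2470 reads (734 ± 89.6 CPM). Mir376a and Mir376b have no row, so the sum of this stretch covers 3 of its 5 genes. The third stretch, from Mir381 to Mir544, summed to 11843 ± 41.5 CPM (25.2%), of which Mir487b made up the greater part.

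The fourth stretch, from Mir382 to Mir453, summed to 5588 ± 98.9 CPM (11.9%). Its Mir485, known from presynaptic control through SV2A, had 1044 and 1127 reads (311 ± 7.44 CPM). The fifth, from Mir154 to Mir410, summed to 12578 ± 730 CPM (26.8%), led by Mir369 among its counted members. This sum covers 7 of its 8 genes, as Mir409 has no row. The minus-strand row over Mir409, Gm24321, was at 11105 CPM and is left out, so the stretches are not ranked by their sums. In the fifth stretch, Mir496a had 592 and 640 reads (177 ± 4.04 CPM) and Mir377 522 and 534 (152 ± 9.38 CPM). Mir410, after which the cluster is named, had only 636 and 928 reads (222 ± 41.8 CPM), and Mir412 had 420 and 528 (135 ± 11.3 CPM). The sixth stretch is Mir3072 alone. Spearman's rho of level with position over the 30 members was −0.0638. It is a description only, since the members share both libraries and are known to share a transcription unit.

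**Figure D2:**
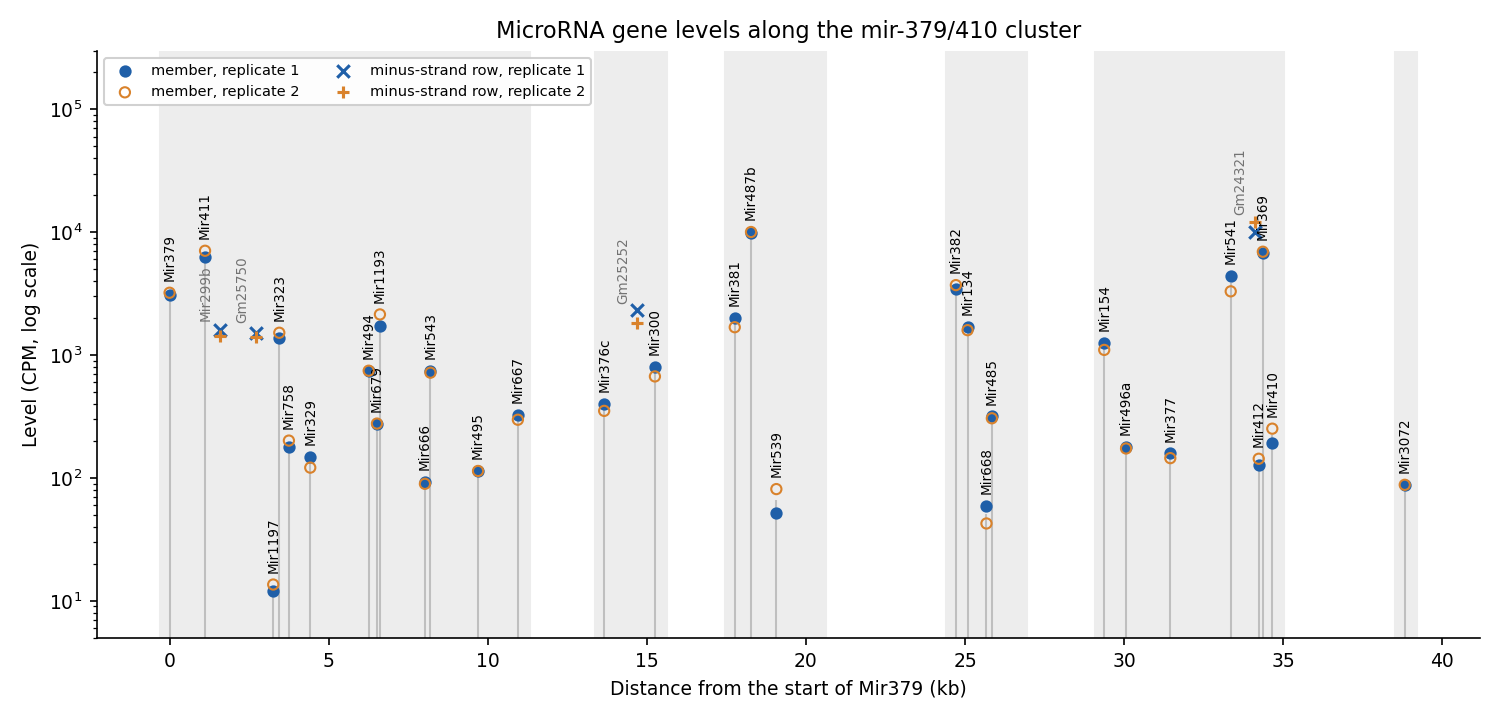
Level in CPM (log axis) of the 30 members of mean CPM 10 or more against distance from the start of Mir379 in kb; filled circles are replicate 1, open circles replicate 2, vertical lines reach the mean, and grey bands mark the 6 stretches. Crosses are the 4 rows of the minus strand in the same window; high and low members alternate along the whole length, and Gm24321 at 11105 CPM stands above every member.

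Genes next to each other could differ more than 10-fold in level. An example is the triplet Mir412, Mir369 and Mir410 near the distal end, whose precursors follow each other at gaps of 49 and 218 bp. Mir369 was 50.7-fold above Mir412 and 30.8-fold above Mir410 in mean CPM, and in each library its reads exceeded those of both by far. The 3 precursors are given here (RefSeq, GRCm38.p6, plus strand) with the mature arms in capitals.
Mir412: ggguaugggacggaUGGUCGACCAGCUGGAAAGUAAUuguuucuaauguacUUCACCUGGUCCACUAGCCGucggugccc
Mir369: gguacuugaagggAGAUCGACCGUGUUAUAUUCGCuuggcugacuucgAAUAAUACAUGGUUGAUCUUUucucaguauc
Mir410: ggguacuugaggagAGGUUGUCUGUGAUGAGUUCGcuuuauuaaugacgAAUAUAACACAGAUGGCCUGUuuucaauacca
They are 80, 79 and 81 bases long, and their predicted folding energies are −33.9, −33.1 and −34.7 kcal/mol (ViennaRNA). Their GC content is 53.75%, 41.77% and 40.74%, that of Mir412 being the highest.

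Among the 29 neighbouring pairs of members of 10 CPM or more, 10 differed by more than 10-fold, and 3 of these 10 pairs were under 500 bp apart. Mir1197 and Mir323, 71 bp apart, differed 113-fold. Mir487b and Mir539, 714 bp apart, differed 149-fold. Of the 10 pairs, 7 have no annotated member between them; Mir411 and Mir1197, which differed 519-fold, have Mir299a and Mir380 between them. The median absolute difference of log2 level was 2.68 for neighbouring pairs, 2.64 for the 24 of them with no annotated member between, and 2.43 for all 435 pairs. Neighbours were thus no closer in level than members at large, as the plot of folds against gaps shows.

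**Figure D3:**
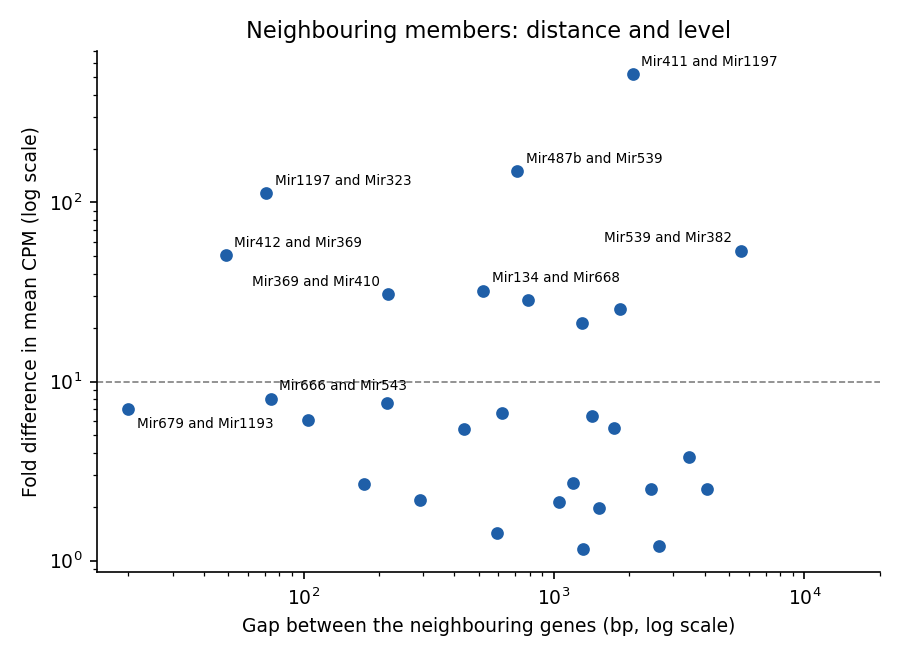
Fold difference in mean CPM (log axis) against the gap in bp (log axis) for the 29 pairs of neighbouring members of mean CPM 10 or more; each point is a pair and the dashed line marks 10-fold. The closest pair, Mir679 and Mir1193, lies under the line, while Mir1197 and Mir323, 71 bp apart, differ 113-fold; folds above 10 occur at short and at long gaps.

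Place in the host transcript and simple features of the hairpin were set against level. In GENCODE M21, 9 members overlap an exon of Mirg, 5 lie in its introns and 25 lie upstream of it outside any other annotated gene of that strand. The median levels of members of 10 CPM or more were 222 CPM for the 9 in exons, 1182 CPM for 3 in introns and 552 CPM for 18 in intergenic sequence. Over the 29 such members with a RefSeq precursor, Spearman's rho of level was −0.107 with GC content (29.1 to 72.3%), 0.100 with folding energy (−46.7 to −22.8 kcal/mol) and 0.0854 with precursor length (63 to 121 bases). These rank correlations are near 0 and are descriptions across genes, with no test.

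Some pairs of members are alike in sequence, which the positional rule did not use. Over 630 pairs of RefSeq precursors, the median identity in global alignment was 48.9%. No identity with precursors outside the cluster is given here, so this median does not show likeness of the members in general. The closest pair, Mir376c and Mir376b, reached 80.7%, followed by Mir300 and Mir381 at 73.8%, Mir411 and Mir758 at 73.5% and Mir539 and Mir382 at 72.4%. Levels differed within these pairs: Mir381 was 2.51-fold above Mir300, Mir411 was 35.0-fold above Mir758 and Mir382 was 53.9-fold above Mir539. The letters GGUUG occur in 12 of the 71 mature sequences (16.9%), against 2.50% of 1603 other mouse mature sequences in the same table, and GGUC in 13 (18.3%) against 6.55%. Both motifs were chosen after the sequences were seen, were searched on the mature strand, and carry no test.

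Most mature sequences nonetheless had seeds of their own, 65 different seeds among 71 sequences. RefSeq lists both arms for 33 of the 38 members and 1 for Mir376c, Mir453, Mir485, Mir487b and Mir539, so the seeds counted are those of listed arms. Only 6 of these recur, each in 2 members, and they join 11 genes. The groups are shown because genes of 1 seed are known to share many predicted targets. Capitals mark the seed.
miR-379-5p: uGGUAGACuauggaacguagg
miR-1193-5p: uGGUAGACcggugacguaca
miR-379-3p: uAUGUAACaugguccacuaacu
miR-411-3p: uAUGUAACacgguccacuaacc
miR-494-5p: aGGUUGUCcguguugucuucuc
miR-410-5p: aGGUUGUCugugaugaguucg
miR-758-5p: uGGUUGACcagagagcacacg
miR-1197-5p: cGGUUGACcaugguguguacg
miR-496a-5p: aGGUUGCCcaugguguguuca
miR-453: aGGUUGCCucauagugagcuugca
miR-376c-5p: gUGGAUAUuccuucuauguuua
miR-376b-5p: gUGGAUAUuccuucuaugguua
The 3 genes Mir379, Mir411 and Mir1193 are linked through the 2 arms of Mir379, and all stood among the 10 highest members. In the other groups 1 gene was well above its partner: Mir494 at 741 CPM against Mir410 at 222 CPM, Mir758 at 191 CPM against Mir1197 at 12.9 CPM, and Mir496a at 177 CPM against Mir453 without a read. Mir376b has no row to compare with Mir376c.

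Of the annotated members, 5 have no row and were not analysed here as genes: Mir299a, Mir380, Mir376a, Mir376b and Mir409. At each of these but Mir376b, annotated microRNA genes of the minus strand do have rows. Of their reads, 99.9% to 100% per row were in the column read as the row's opposite strand, which is the cluster's strand. Gm24321 (chr12:109743158-109743237), over Mir409, had 33216 and 44699 reads, 11105 ± 1461 CPM, all on the opposite strand. This is above Mir487b in each library, and would be the highest level of the window. Gm25252, over Mir376a, had 7749 and 6764 reads (2093 ± 363 CPM). Mir299b, over Mir299a, had 5245 and 5232 reads (1506 ± 120 CPM, 99.9% on the opposite strand), and Gm25750, over Mir380, 5035 and 5173 (1466 ± 86.2 CPM).

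Together the opposite-strand reads of these 4 rows made up 1.62% ± 0.0891 of gene-assigned reads. Counted with the members they would bring the cluster to 6.32% ± 0.112 and hold 25.6% ± 0.959 of that sum. Of the members' own reads only 1, of Mir154, lay on the opposite strand. Whether the reads on the minus-strand rows come from the cluster's genes was not tested, as read positions were not used here. The values of the members given above leave them out.

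The 2 pools gave nearly the same values for most members. The log2 ratio of replicate 2 over replicate 1, on libraries scaled by TMM, had a median of 0.002 over the 30 members of 10 CPM or more, against −0.03 over all 338 such genes. Its SD was 0.23 (0.36 when Mir544, with 17 and 6 reads, is added), against 0.09 from counting error alone, and 0.59 over the 308 other genes, against 0.15 from counting. The ratio was within 1.5-fold for 29 of 30 members (96.7%), against 251 of 308 other genes (81.5%). Among genes of 100 CPM or more, the SD was 0.19 over 25 members and 0.43 over 197 others. The members were thus less spread between the pools than other genes of the same minimum level. No test was made, as genes known to share a transcription unit are not independent. Low spread was not particular to the members: of 8 other runs of neighbouring microRNA genes 6 had a lower SD of log2 ratio.

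A two-sided exact binomial test per member, with the libraries scaled by TMM and adjusted by Benjamini-Hochberg over all 485 genes tested, called 18 of 31 members tested (58.1%), where 49.7% of all genes were called. It called 9 members higher in replicate 2 (29.0%, against 23.1% of all genes) and 9 lower (29.0%, against 26.6%), shares near those of genes at large. The test compares 2 libraries and not conditions, and takes reads as independent. Of the 18 called, 16 lay within 1.5-fold, and Mir539 and Mir544 lay beyond it.

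The members that differed most came from all levels, from Mir668 and Mir539 below 100 CPM to Mir1193 and Mir541 above 1000 CPM. Mir539 had 171 and 299 reads and was 1.57-fold higher in replicate 2 (95% counting interval 1.30 to 1.91, adjusted p = 6.32e-06 in the exact binomial test). Mir410 was 1.31-fold higher (1.18 to 1.45, adjusted p = 5.00e-07 in the same exact test), and Mir1193 1.24-fold (1.20 to 1.28). On the other side, Mir668 with 196 and 157 reads had a ratio of 0.720 (0.580 to 0.892), Mir541 of 0.753 (0.735 to 0.771) and Mir329 of 0.825 (0.724 to 0.940), all called lower. Mir541 stands out among the abundant members, as its log2 ratio of −0.41 rests on 14515 and 12165 reads. Below 10 CPM, Mir544 was also called lower, on 17 and 6 reads (ratio 0.334, 0.102 to 0.843).

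Called higher by small amounts were Mir411 (1.13-fold), Mir323 (1.11-fold), Mir382 (1.08-fold), Mir379 (1.05-fold), Mir369 (1.03-fold) and Mir487b (1.03-fold). The call of Mir369 was lost when genes that share sequence were left out before scaling. Called lower were Mir300 (ratio 0.844), Mir381 (0.849), Mir154 (0.877), Mir376c (0.884) and Mir134 (0.951), the last not with DESeq2 size factors, where its adjusted p was 0.263. By stretch, 4 of 13 tested members were called higher and 1 lower in the first, 0 and 2 of 2 in the second, 2 and 2 of 4 in the third, 1 and 2 of 4 in the fourth, and 2 and 2 of 7 in the fifth. Of all genes 23.1% were called higher and 26.6% lower, and the stretches hold too few members to be read against these shares. Spearman's rho of the log2 ratio with position was −0.223 over 30 members. Neighbouring pairs differed in log2 ratio by a median of 0.15, all pairs by 0.20. Of the minus-strand rows, Gm24321 was 1.21-fold higher in replicate 2, and Gm25252 (ratio 0.784), Mir299b (0.896) and Gm25750 (0.923) were lower.

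**Figure D4:**
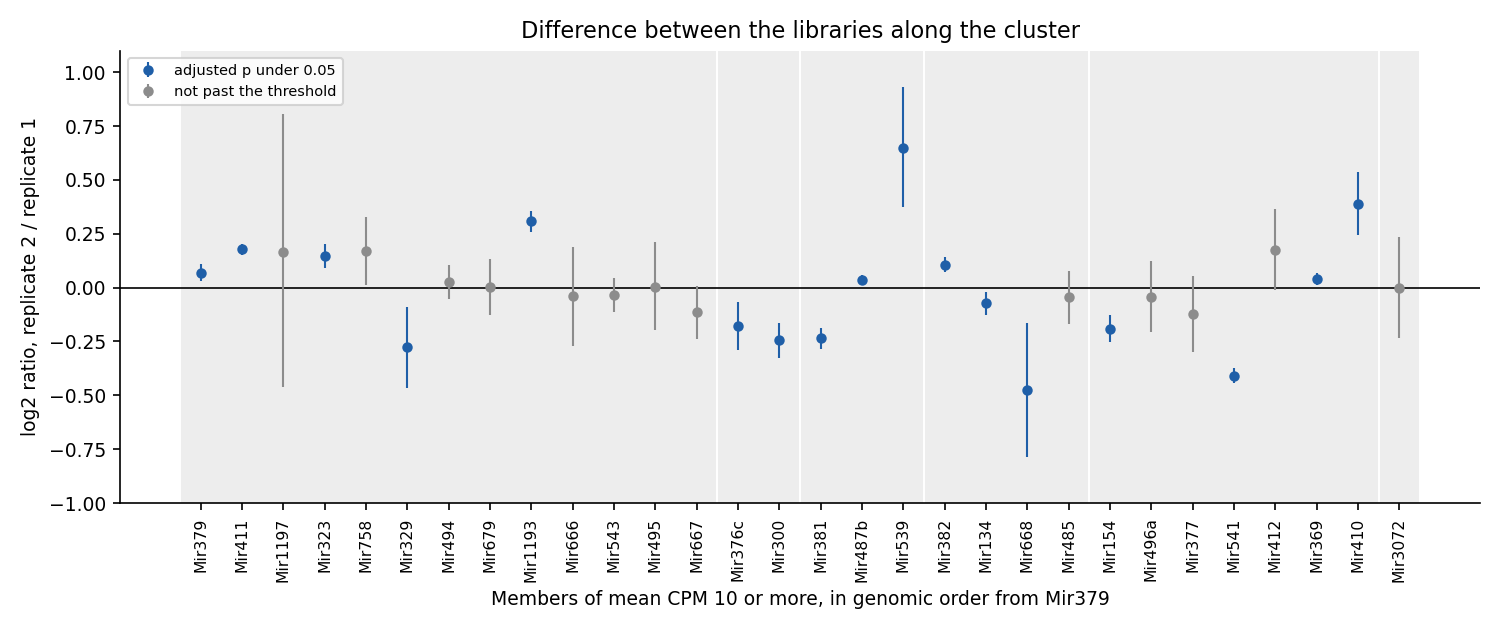
log2 ratio of replicate 2 over replicate 1 (TMM-scaled) for the 30 members of mean CPM 10 or more in genomic order; bars are 95% counting intervals, blue points have an adjusted p under 0.05, grey points do not, and white lines part the 6 stretches. Points lie between −0.47 (Mir668) and 0.65 (Mir539). The consecutive points of Mir376c, Mir300 and Mir381 lie at −0.18 to −0.24, with 3 annotated genes without a point between Mir376c and Mir300.

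In relative terms, marker lists of other cell types and of the tissue itself differed more between the pools than the cluster's share did. That share is a sum over 34 genes, of which 9 were called higher and 9 lower, so single members differed more than it did. The lists hold fewer genes. With the minus-strand rows the cluster's share was 6.24% in replicate 1 and 6.40% in replicate 2. The midbrain and progenitor list held 2.19% and 2.58% of gene-assigned reads, and a list of neural microRNAs from outside the cluster 1.11% and 1.06%. The epithelium list held 0.340% and 0.409% of gene-assigned reads, the mesenchyme list 1.62% and 1.32%, the endothelial Mir126a 2.64% and 3.08%, and the blood list 0.0992% and 0.0955%. Of these lists 7 of 7 epithelium, 5 of 6 mesenchyme and 5 of 5 blood genes reached 10 CPM. Their part in the members' differences was not tested.

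Set beside the rest of the imprinted region, the cluster was the larger block. The 19 counted plus-strand microRNA genes of the 200 kb before the window, those around Meg3, Rtl1 and Rian, held 2.03% ± 0.0347 (SD, n = 2), with 13 genes at 10 CPM or more. Their median was 1015 CPM, above the 343 CPM of the cluster's members, and their highest gene, Mir431, was at 6583 ± 320 CPM, close to Mir411. Their median log2 ratio was 0.10 with an SD of 0.16. Of 14 tested, 7 were called higher and 2 lower, where 23.1% and 26.6% of all genes were. A list of 17 counted neural microRNAs from outside the region held 1.08% ± 0.0350, although 13 of the 17 share sequence with other loci and can have lost reads.

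Genome-wide, 11 runs of 5 or more microRNA genes on 1 strand with gaps of at most 10 kb have counted genes. The cluster formed exactly 1 of these runs and had the most genes at 10 CPM or more, 30, followed by the run from Mir770 to Mir136 upstream of it, with 10. These numbers hold for reads mapped to 1 place: in the run from Gm22072 to Mir669h, 105 of 107 counted genes share sequence with other loci, and 8 reached 10 CPM. By share of gene-assigned reads the cluster came second to the Mir17 to Mir92-1 run, which held 13.3% ± 0.298 in 6 genes. In that run the highest of 6 counted genes held 60.3% of the reads, in the cluster the highest of 34 held 21.1%. Of the 6 genes 2 share sequence with other loci, as do 4 of the 34, and such genes can have lost reads. No mature sequence listed for these 4 members holds a shared stretch, however. The ratio of shares between replicate 2 and replicate 1 was 1.01 for the cluster, 1.03 for Mir17 to Mir92-1, 1.35 for Mir363 to Mir106a and 2.31 for Mir302b to Mir367. The SD of log2 ratio within the run was 0.23 for the cluster, and from 0.09 (Mir302b to Mir367) to 0.25 (Mir500 to Mir532) for the 8 others.

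**Figure D5:**
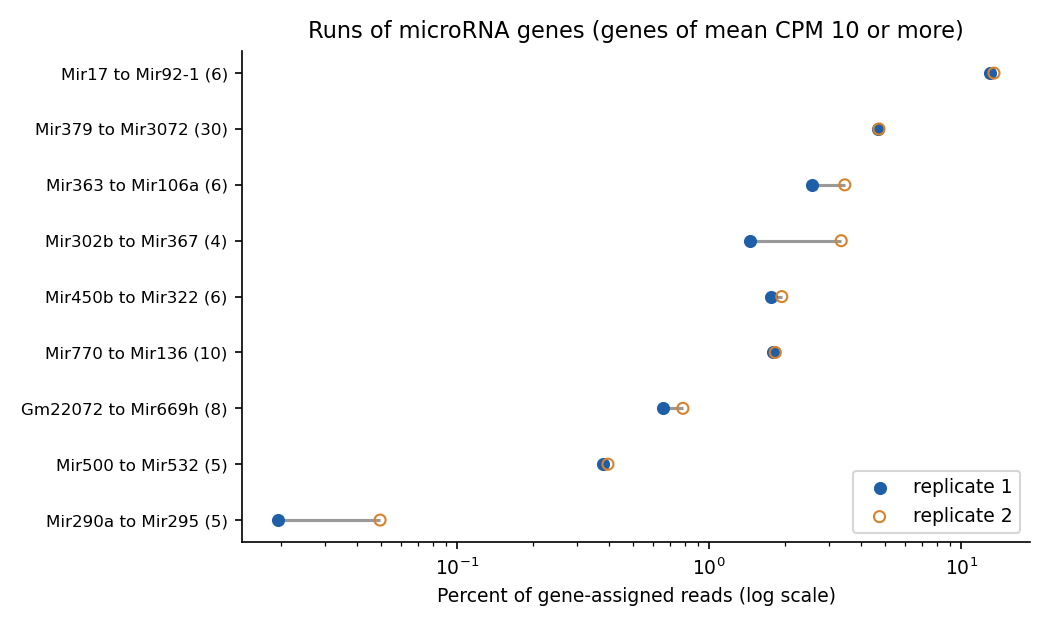
Percent of gene-assigned reads (log axis) in each library for the 9 runs of microRNA genes with a gene at mean CPM 10 or more, the number of such genes in brackets; filled points are replicate 1 and open points replicate 2. The run from Mir379 to Mir3072 lies at 4.69% and 4.72%, its points overlapping, while those of Mir302b to Mir367 and Mir290a to Mir295 lie apart.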

How the data were processed

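The authors deposited 1 table of raw read counts per microRNA gene for each library. Per the files' deposited descriptions the reads were aligned to mm10 and counted on GENCODE M4; the aligner's name was not given in the sources used here, nor was trimming. Each table has 3 unnamed count columns, the first being the sum of the others in every gene row, and 4 rows naming no gene, which were left out of library sizes. The first column was used. The second, with 97.4% and 97.3% of these reads, was read as the gene's own strand, which no source states.

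Identifiers were matched without version to GENCODE M21 on the same build (1894 of 1973 matched). Replicates are labelled biological, from separate pools. The p-values set the difference between these 2 libraries against counting error only, and hold no estimate of the spread between pools. Log2 ratios used 0.5 added reads and TMM (edgeR 4.0.16), and genes with at least 10 reads in sum were tested. The test was checked on simulated counts that held counting error only, as the test assumes. That check therefore does not cover the wider spread seen between the pools. Sharing of sequence means a 20-base stretch found in another precursor. Folding used ViennaRNA 2.7.2 and alignment biopython 1.88, with Python 3.11.15, scipy 1.17.1 and R 4.3.3. Named in full were the 10 highest members, the 5 lowest with a read, and the 3 highest and 3 lowest ratios, with other members by stretch and seed. Genes at the window's edges and runs elsewhere were named in addition, after their values were seen. Members and lists were chosen with earlier results of these data known. Alternatives were DESeq2 1.42.0 size factors, total counts, the strand column, filters, denominators, shared sequence, the minus-strand rows and each library alone.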

Additional observations from a re-analysis of the deposited data

Results flagged for a closer look

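Reads on minus-strand microRNA rows of the window, which are not members, exceeded what a count of 0 allows (3 reads). Mean levels were 11105 CPM for Gm24321, 2093 CPM for Gm25252, 1506 CPM for Mir299b and 1466 CPM for Gm25750.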

How the results depend on the processing

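The cluster's share of 4.70% was 4.83% in the strand column, 5.39% without the most abundant gene in the denominator, 1.91% of all reads, 6.32% with the minus-strand rows and 2.98% without the 4 members that share 20 bases with another member (Mir411, Mir758, Mir376c and Mir487b). No mature sequence listed for these 4 holds a shared stretch. The share of the 5 highest members was 66.2% among members of 100 CPM or more, 64.9% without the 4 and 60.8% with the minus-strand rows. The SD of log2 ratio was 0.36 with members of at least 1 read in each library, which adds Mir544. The rank correlation (Spearman) of level with position was −0.0477 at 100 CPM or more, −0.0774 with at least 1 read, 0.00103 without the 4, −0.0469 with the minus-strand rows and 0.0777 without the first and last member, so no direction is given for it. From 1 library alone it was −0.0803 to −0.0674, the share 4.69 to 4.72%, that of the 5 highest 65.6 to 65.9%, and 30 members reached 10 CPM in either. DESeq2 size factors called 18 members, 17 of them shared with TMM (Mir134 lost, Mir758 gained), total counts and the strand column the same 18, and the test without the 4 called 14, losing those 3 of them that were called and Mir369. The other 31 settings of these summaries stayed within the replicate spread or 1.5 times the count. For single members, 92 values stayed within that spread or kept their call, 25 levels moved beyond it, and 1 call was lost (Mir134, log2 ratio −0.04). The test without the 4, where the call of Mir369 was lost, is not in these single-member counts. An alternative per base of precursor, one without members under 500 reads and one on mature sequences were chosen after the data were seen. No paired analysis was possible because there is 1 group. Depth limits members under about 100 CPM most.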
